A study of Rattus norvegicus with 24 samples.

Results

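Mt1 encodes metallothionein 1, and its RNA level and the methylation of the DNA around its start were followed in the kidneys of 12 female rats. The gene is 1 of the 32883 genes of the RNA-seq count table, where it stands as ENSRNOG00000038047. The DNA side is every CpG in a window of 25 kb around the gene on chromosome 19 (Rnor_6.0) that reduced representation bisulfite sequencing (RRBS) read at least 5 times in a library. RRBS cuts DNA with MspI, an enzyme that recognises CCGG, and treats it with bisulfite, so that an unmethylated C is read as T. A CpG position here is the cytosine of a CpG on 1 strand. The window held 159 such positions in at least 1 rat, of 2571166 in the whole series, and 133 to 155 positions per rat. Of these, 112 were read at least 5 times in all 12 rats, of 1058678 in the series.

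All rats were 2 months old, per the labels. They belonged to 2 strains, CD (outbred Sprague Dawley) and BN (inbred Brown Norway, studied as a model of complicated pregnancy), and each strain was sampled non-pregnant (CD-NP, BN-NP) and at pregnancy day 18 (CD-P18, BN-P18), with 3 rats per group. RNA and DNA came from kidney cross-sections that hold both cortex and medulla. The reads were aligned to Rnor_6.0, an assembly of the BN strain. Between 8274159 and 11879451 reads per RNA library were counted on genes, and RRBS coverage summed to 21669162 to 44738436 calls per library. Kidney identity was visible in Slc34a1, the phosphate transporter of the proximal tubule, which had group means of 1618 to 2716 CPM, the count of a gene scaled to the size of its library.

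Metallothioneins are small cysteine-rich proteins that bind zinc and copper and buffer the free metal of the cell. The metal-responsive transcription factor Mtf1 senses free zinc and binds short metal response elements in their promoters, and glucocorticoids, oxidative stress and inflammation are known to induce them as well. In the kidney, metallothionein is found mainly in the tubular epithelium, where it also binds cadmium. Methylation of CpGs at a promoter is often, though not always, seen together with low transcription.

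The sequence of the Mt1 promoter is shown because the covered CpGs can be placed on it base by base. RefSeq gives 300 bases per gene in build GRCr8, a later assembly than that of the files. Of all offsets in the window, 1 put a CpG of this sequence on every one of the 25 covered positions of the stretch, and the next best offset did so for 8 of 15. By that match, the first transcribed base of Mt1 was base 11303007 of chromosome 19 in Rnor_6.0, on the minus strand. Positions are counted from that base as 0, with negative numbers upstream. The same procedure put the start of Mt2A, the next gene of the cluster and also a metallothionein, at base 11308740 (11 of 11 positions, next best 9 of 23), also on the minus strand, and found no complete match for Mt3. The order of RefSeq genes there is Nup93, Mt1, Mt2A, Mt3 and Mt4. In the first sequence, from position -250 to position -3, capitals mark the metal response elements (TGCGCNC or TGCACNC, searched on both strands). It lies at chr19:10832978-10833225 of GRCr8, minus strand, and is written 5′ to 3′.
Mt1 promoter: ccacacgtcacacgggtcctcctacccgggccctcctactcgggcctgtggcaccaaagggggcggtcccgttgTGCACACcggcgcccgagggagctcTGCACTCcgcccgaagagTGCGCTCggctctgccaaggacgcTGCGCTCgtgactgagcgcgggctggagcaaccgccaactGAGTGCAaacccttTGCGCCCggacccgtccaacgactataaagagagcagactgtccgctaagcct
The second sequence, from position -60 to position 9 (chr19:10832966-10833035 of GRCr8, minus strand), shows in capitals the 5 CpGs whose methylation separated the strains.
Mt1 start: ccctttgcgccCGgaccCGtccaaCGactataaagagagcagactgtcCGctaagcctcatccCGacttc

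The promoter held 6 metal response elements, starting at positions -176, -151, -133, -109, -69 and -55. Of 33469 RefSeq promoters of the same length, 24.2% held at least 1 and 0.0388% held 6 or more. A GC box (GGGCGG, either strand) was present 2 times, and 33.1% of promoters held one. The element TGACNNNGC, the core of the antioxidant response element, occurred 1 time (12.1% of promoters) and TATAAA 1 time, at positions -32 to -27 (14.2%). MspI sites (CCGG) lay at positions -225, -170 and -50, and 51.4% of promoters held at least 1. The last letter of the metal response element at positions -55 to -49 is the C at position -49 and belongs to the third MspI site, and the elements at -176 and -151 share a letter with an MspI site and a GC box. A match of letters is a description of the sequence and not a measured binding site. The 27 CpGs of the promoter compare with a median of 7 over all promoters.

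Mt1 RNA was lowest in pregnant CD rats. The CD-NP rats had 78.0, 53.3 and 64.7 CPM, and the CD-P18 rats had 50.6, 35.2 and 29.7 CPM. All CD-P18 rats were below all CD-NP rats. The BN-NP rats had 79.7, 70.5 and 65.6 CPM, within or just above the range of CD-NP. The BN-P18 rats had 106, 59.4 and 83.3 CPM, a range that encloses that of BN-NP and lies above every CD-P18 rat. These levels rest on 291 to 988 counts per library.

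**Figure D1:**
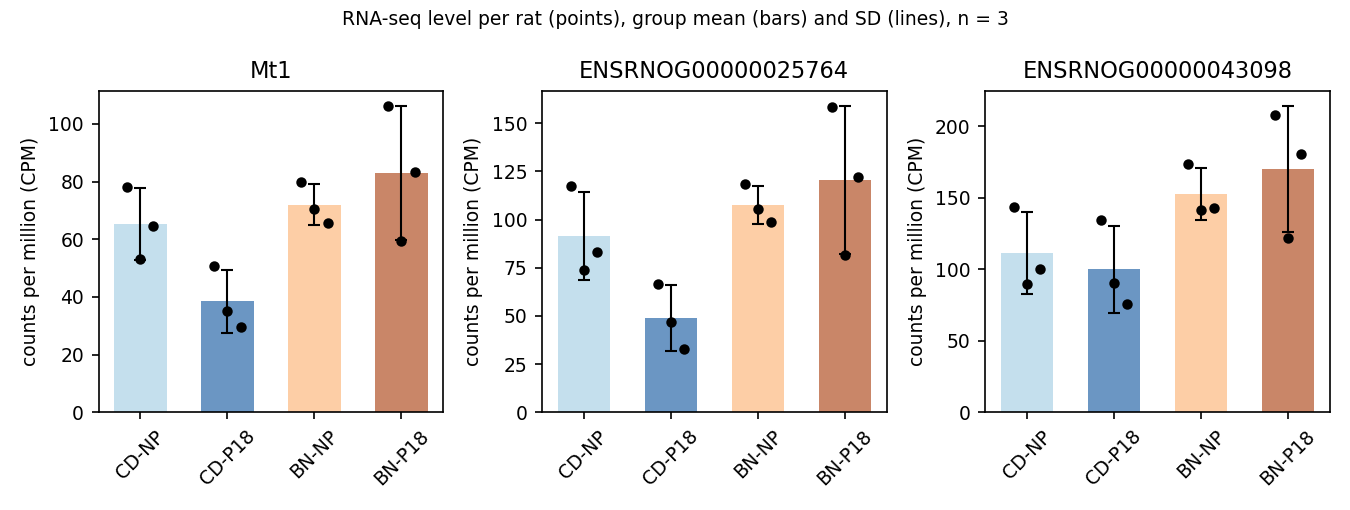
RNA-seq level in CPM (vertical axis, from 0) of Mt1 and of the unnamed genes ENSRNOG00000025764 and ENSRNOG00000043098 in the 4 groups; points are rats, bars group means and lines the SD (n = 3). For Mt1 the CD-P18 rats sit between 29.7 and 50.6 CPM, below the rats of every other group.

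From high to low, the mean level was 82.9 ± 23.3 CPM for BN-P18, 71.9 ± 7.14 for BN-NP, 65.3 ± 12.4 for CD-NP and 38.5 ± 10.8 for CD-P18 (SD, n = 3 each). In this order, BN-P18 and BN-NP did not differ beyond their spread, nor did BN-NP and CD-NP, whereas CD-NP and CD-P18 did. Mt1 ranked 3236 of 14212 tested genes by mean level. Levels are per library and not per length of gene, so they serve for comparing rats and not genes.

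In CD rats, Mt1 fell by 0.76 on the log2 scale at P18 (SE 0.216, adjusted p = 0.0825, edgeR quasi-likelihood test, Benjamini-Hochberg adjustment over 14212 genes), to 0.591 of the CD-NP level. With the study's thresholds, a call needed an adjusted p below 0.1 and a log2 fold change larger in size than 0.32, and 4.71% of all tested genes were called in this comparison. The call was lost without CD-NP 1 (adjusted p = 0.189), CD-NP 3 (0.151), CD-P18 2 (0.2) or CD-P18 3 (0.247). In BN rats, the difference at P18 was 0.20 (SE 0.209, 95% interval -0.25 to 0.65, adjusted p = 0.83), and 1.4% of genes were called.

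Between the non-pregnant strains, Mt1 differed by 0.14 on the log2 scale (BN minus CD, SE 0.21, 95% interval -0.31 to 0.59, adjusted p = 0.77), where 8.38% of genes were called. Between the pregnant strains it was 2.14-fold higher in BN-P18 than in CD-P18 (log2 fold change 1.10, SE 0.215, adjusted p = 0.00713), where 9.6% of genes were called and Mt1 ranked 340 by p. This call held when each of the 6 rats was left out in turn (log2 fold change 0.88 to 1.35, adjusted p 0.00357 to 0.0346). The study singled out Mt1 on this contrast of the same rats, so the value is not independent evidence. By real-time PCR, the study also reported more Mt1 RNA in pregnant BN than in pregnant CD rats. Its PCR further showed a rise with pregnancy in BN, which it did not find by RNA-seq. The pregnancy difference of BN minus that of CD was 0.96 (SE 0.3, unadjusted p = 0.00657, adjusted p = 0.198) and did not pass at 0.1, and 0.943% of genes passed. It passed without a filter on low counts (adjusted p = 0.0357), with the replicate block (0.0433) and with DESeq2 (0.0596).

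Genes with near-identical copies can share or lose reads in this kind of counting, and RefSeq lists the pseudogenes Mt1-ps1, Mt1-ps3, Mt1-ps4 and Mt1m on other chromosomes. The gene whose log2 CPM followed Mt1 most closely over the 12 libraries was ENSRNOG00000025764 (Pearson r = 0.993 across rats, given as a description), for which the sources used here pair no name. Its levels were 117.5, 73.7 and 83.1 CPM in CD-NP and 66.7, 47.0 and 32.6 in CD-P18. In BN-NP they were 118.2, 105.5 and 98.8, and in BN-P18 158.2, 81.6 and 122.3. Since it was chosen for its likeness to Mt1 in these libraries, its calls are a description and add no evidence. It was lower at P18 in CD (log2 fold change -0.90, adjusted p = 0.0836, edgeR) and higher in BN-P18 than in CD-P18 (1.30, adjusted p = 0.00779, edgeR). Whether the 2 genes share reads was not tested.

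ENSRNOG00000043098, likewise without a paired name, ranked 5 by similarity (r = 0.89) and, once group means were removed, followed Mt1 with r = 0.973. Its mean level was 111 and 99.9 CPM in the CD groups (NP, then P18) and 153 and 170 CPM in the BN groups. It was called only in the comparison of the pregnant strains (0.76, adjusted p = 0.0603), and its P18 difference in CD was -0.15 (adjusted p = 0.8). In the plot of levels by group, the rat numbered 1 was the highest of its group for Mt1 in all 4 groups.

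The other genes chosen for their likeness to Mt1 were ENSRNOG00000000657 (r = 0.907), Cavin2 (r = 0.907), a coat protein of caveolae, and Hpcal1 (r = 0.893), a neuronal calcium sensor protein. Hpcal1 had 35.5 to 40.1 CPM in CD-P18 against 49.4 to 52.7 in CD-NP, without overlap, and 52.2 to 62.2 over the BN rats. It was lower at P18 in CD (-0.45, adjusted p = 0.0119), higher in BN-P18 than in CD-P18 (0.65, adjusted p = 0.000412), and passed the test of strain by pregnancy (0.50, adjusted p = 0.0989). Cavin2 was higher in BN-P18 than in CD-P18 (0.41, adjusted p = 0.00503), and its P18 difference in CD was -0.26 (adjusted p = 0.0863) with a change too small for a call. ENSRNOG00000000657 was called in no comparison.

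The count table holds identifiers only. A gene was given a symbol where its values singled it out in the study's own table of named genes, and that table holds genes with a small p in these rats, so the gene lists below lean towards genes that changed, and their counts are not read as results about the lists. Symbols were paired for 6 of 21 genes of the list of Mtf1 and zinc transporters, and Mtf1, Mt2A and Mt3 were not among those paired. In CD pregnancy, 1 of the 6 rose and none fell, where 4.71% of all tested genes were called. This was Slc30a1, the zinc exporter of the plasma membrane and a target of Mtf1, with 117.9 ± 10.8 CPM in CD-NP and 160.3 ± 11.9 in CD-P18 (SD, n = 3). Its log2 fold change was 0.44 (adjusted p = 0.0867, edgeR), opposite in direction to that of Mt1. The list's median was 0.13 against -0.01 over all tested genes.

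In BN-P18 against CD-P18, 3 of the 6 were higher and none lower (median 0.20), where 9.6% of all tested genes were called. Slc30a6, a zinc transporter of the secretory pathway, was higher by 0.41 (adjusted p = 0.032) and passed the test of strain by pregnancy (0.72, adjusted p = 0.0562). Slc39a8, a zinc and manganese importer, was higher by 0.41 (adjusted p = 0.055) and rose in BN pregnancy by 0.54 (adjusted p = 0.0744). Slc39a14, a zinc, iron and manganese importer, was higher by 0.34 (adjusted p = 0.0788) and already by 0.65 between the non-pregnant strains (adjusted p = 0.00376).

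Of the copper list, 4 of 10 genes had a symbol. Cp, which encodes ceruloplasmin, the copper carrier of plasma, rose in CD pregnancy (0.69, adjusted p = 0.0442). Atp7b, a copper-exporting ATPase, was lower in BN-P18 than in CD-P18 (-0.45, adjusted p = 0.064), and Sod1, the copper and zinc superoxide dismutase, was lower in BN-NP than in CD-NP (-0.39, adjusted p = 0.0925).

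Of 10 genes known to be induced by glucocorticoids, 6 had a symbol. In CD pregnancy 5 of these 6 rose and none fell (median 1.18), where 4.71% of all tested genes were called, and Klf9 had a log2 fold change of 0.20 (adjusted p = 0.471). Tsc22d3, which encodes the glucocorticoid-induced leucine zipper, went from 67.9 ± 12.1 CPM in CD-NP to 179.7 ± 30.9 in CD-P18 (1.41, adjusted p = 0.001). Fkbp5, a co-chaperone of the glucocorticoid receptor, rose by 1.76 (adjusted p = 0.00782) and Zbtb16, a zinc finger transcription factor, by 1.57 (adjusted p = 0.0029). Cebpd and Per1 rose by 0.95 and 0.70 (adjusted p = 0.00711 and 0.0501). In BN pregnancy none of the 6 was called (median 0.05), where 1.4% of all genes were. Between the non-pregnant strains 4 were higher in BN, namely Tsc22d3, Fkbp5, Zbtb16 and Klf9 (0.47 to 1.55), where 8.38% of all genes were called. In BN-P18 against CD-P18, 1 of the 6 was lower and none higher (median -0.27), where 9.6% were called. The test of strain by pregnancy passed for 3 of the 6 (median -0.90), where 0.943% of all genes passed. These 3 were negative, opposite in direction to Mt1.

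Of the NRF2 list of oxidative stress genes, 7 of 12 had a symbol. In CD pregnancy Gclm, a subunit of the enzyme that starts glutathione synthesis, rose by 0.39 (adjusted p = 0.0978), and in BN-P18 it was lower than in CD-P18 (-0.41, adjusted p = 0.0515). Between the non-pregnant strains Hmox1, heme oxygenase 1, and Slc7a11, the cystine transporter, were higher in BN (1.15 and 2.28, adjusted p = 0.0442 and 0.0654), and Gclc was lower (-0.46, adjusted p = 0.0359). Of the list of IL-6, STAT3 and acute phase genes, 5 of 12 had a symbol. Lcn2, a marker of tubular injury, was higher in BN-P18 than in CD-P18 (1.60, adjusted p = 0.0132), as was Cebpb (0.69, adjusted p = 0.0416), while Socs3 and Il6st rose in CD pregnancy (1.55 and 0.34, adjusted p = 0.0863 and 0.0569). Of the 11 genes of DNA methylation, only Tet2, a methylcytosine dioxygenase, had a symbol, and it rose in CD pregnancy (0.81, adjusted p = 0.0219).

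Some markers of cell types, though not of all those measured, also differed between the groups in which Mt1 differed. In bulk tissue, fewer cells of a type and less RNA per cell cannot be told apart. The 3 macrophage markers summed to 24.7 to 34.7 CPM in the CD-NP rats and to 51.9 to 57.2 CPM in the CD-P18 rats. In BN they summed to 28.8 to 32.4 CPM at NP and to 32.4 to 44.0 CPM at P18. All 3 rose in CD pregnancy, where 4.71% of all tested genes were called, and 1 of the 3 rose in BN pregnancy, where 1.4% were. Mrc1 went from 5.16 ± 0.649 CPM in CD-NP to 18.9 ± 1.12 in CD-P18, and it was lower in BN-P18 than in CD-P18 (-1.46, adjusted p = 0.000344). The podocyte marker Nphs1 fell in CD pregnancy by 0.58 on the log2 scale (adjusted p = 0.0632, edgeR). Slc12a3, the sodium chloride cotransporter of the distal convoluted tubule and 1 of its 2 markers, was lowest in CD-P18 (601.5 to 641.5 CPM, against 667 to 880 CPM in the other groups). It fell in CD pregnancy by 0.44 on the log2 scale and was higher in BN-P18 than in CD-P18 by 0.35 (adjusted p = 0.012 and 0.0205, edgeR). Of 6 proximal tubule markers, 3 had a symbol, and they summed to 1859 to 3676 CPM over the 12 rats. Slc34a1 fell in CD pregnancy by 0.47 (adjusted p = 0.0818), and Slc5a2 was lower in BN-P18 than in CD-P18 (-0.73, adjusted p = 0.00832). The third of them, Slc22a6, an organic anion transporter, had differences of 0.11 in CD pregnancy and 0.19 between the pregnant strains (adjusted p = 0.765 and 0.505) and was higher in BN-NP than in CD-NP (0.59, adjusted p = 0.0307). None of the measured markers of intercalated cells, collecting duct principal cells, fibroblasts or red blood cells was called in CD pregnancy. Between the pregnant strains, only the 1 fibroblast marker among these was called, higher in BN-P18. No marker of the thick ascending limb or the endothelium had a symbol. The part of these cell types in the Mt1 differences was not tested.

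Along the DNA window, covered CpGs fell into 5 clusters, which together held 109 of the 112 positions (runs of at least 3 CpGs with gaps of at most 300 bases). The level of a cluster is the share of methylated calls over its CpGs in a rat. The cluster at the Mt1 start held 48 positions from -626 to 3, and the cluster at the Mt2A start held 31. Another lay 2939 to 3030 bases downstream of the Mt1 start with 16 positions, a further one 7618 to 7811 bases downstream with 5, and the last lay upstream of Mt2A with 9 positions.

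**Figure D2:**
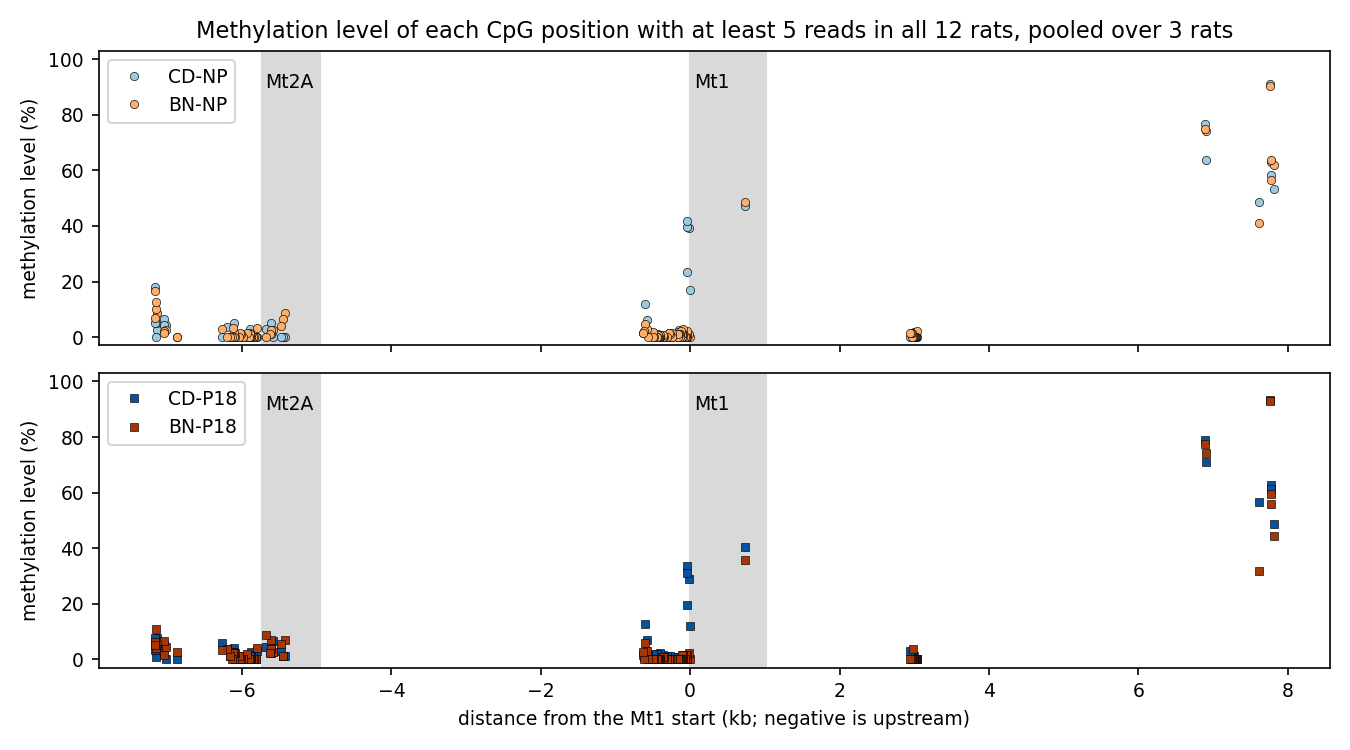
Methylation level in percent (vertical axis) of the 112 CpG positions against their distance from the Mt1 start in kilobases (horizontal axis), non-pregnant groups above and P18 groups below; each point pools the reads of 3 rats, and grey bands give the lengths of Mt1 and Mt2A in RefSeq. Most levels near the Mt2A and Mt1 starts were close to 0, the 5 CD points just at the Mt1 start stood above the BN points, and the positions farthest downstream reached 93.2%.

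The farthest downstream cluster was methylated at 56.2 to 72.0% in the 12 rats, and the cluster 2939 to 3030 bases downstream at 0 to 1.21%. The Mt2A start was at 0.386 to 2.76%. None of these 3 clusters, nor the one upstream of Mt2A (1.93 to 10.7%), passed the test of strain (adjusted p 0.292 to 0.955, exact two-sided permutation test with strain labels exchanged within stage, 400 arrangements, 5 clusters). Apart from position 3, which belongs to the cluster at the start, the transcribed part of Mt1 held a single position covered in all rats, base 11302267 on the minus strand at position 740, with levels of 36.8 to 71.4% in CD and 26.1 to 50% in BN. The strains overlapped there, and the coverage was as low as 7 reads.

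At the Mt1 start the strains were apart. Its 48 positions together were methylated at 2.52, 5.82 and 7.15% in the CD-NP rats and at 3.41, 6.13 and 5.89% in the CD-P18 rats. The BN-NP rats had 0.966, 0.88 and 0.789%, and the BN-P18 rats 0.875, 0.527 and 0.569%. Every CD rat was above every BN rat. BN was lower by 4.39 points on average (exact permutation p = 0.005, the smallest that 400 arrangements can give, adjusted p = 0.025). The study had picked out this promoter from the same rats, so this p is not independent evidence. With BN-NP 1, BN-NP 2 or BN-NP 3 left out, the difference was -4.41 to -4.36 points and the adjusted p 0.05, which does not pass. In these cases every CD rat was still above every BN rat, and an exact p over few arrangements moves in coarse steps. The pregnancy difference was -0.121 points (exact permutation p = 0.77, adjusted p = 0.955, stage labels exchanged within strain). For each strain comparison alone, 3 rats against 3 cannot go below an exact permutation p of 0.1, which was reached in both (-4.29 points at NP and -4.49 at P18).

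This difference rested on 5 of the 48 positions, all read on the minus strand, at positions -49, -43, -36, -12 and 3 (bases 11303056, 11303050, 11303043, 11303019 and 11303004). A C that RRBS reads as unconverted is counted as methylated. Whether the CD reads at these positions come from methylated Mt1 was not tested here beyond the strand comparison given further on. Without them, a setting chosen after seeing the data, the other 43 positions had a level of 1.12 ± 0.495% in CD and 0.791 ± 0.184% in BN (SD, n = 6), a difference of -0.33 points (adjusted p = 0.292, exact permutation test). Of these 43, 41 were at or under 10% in every rat. The exceptions were position -581 and position -605, and the latter had 2.7 to 33.3% in CD and 2.5 to 6.82% in BN and was called in no comparison.

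**Figure D3:**
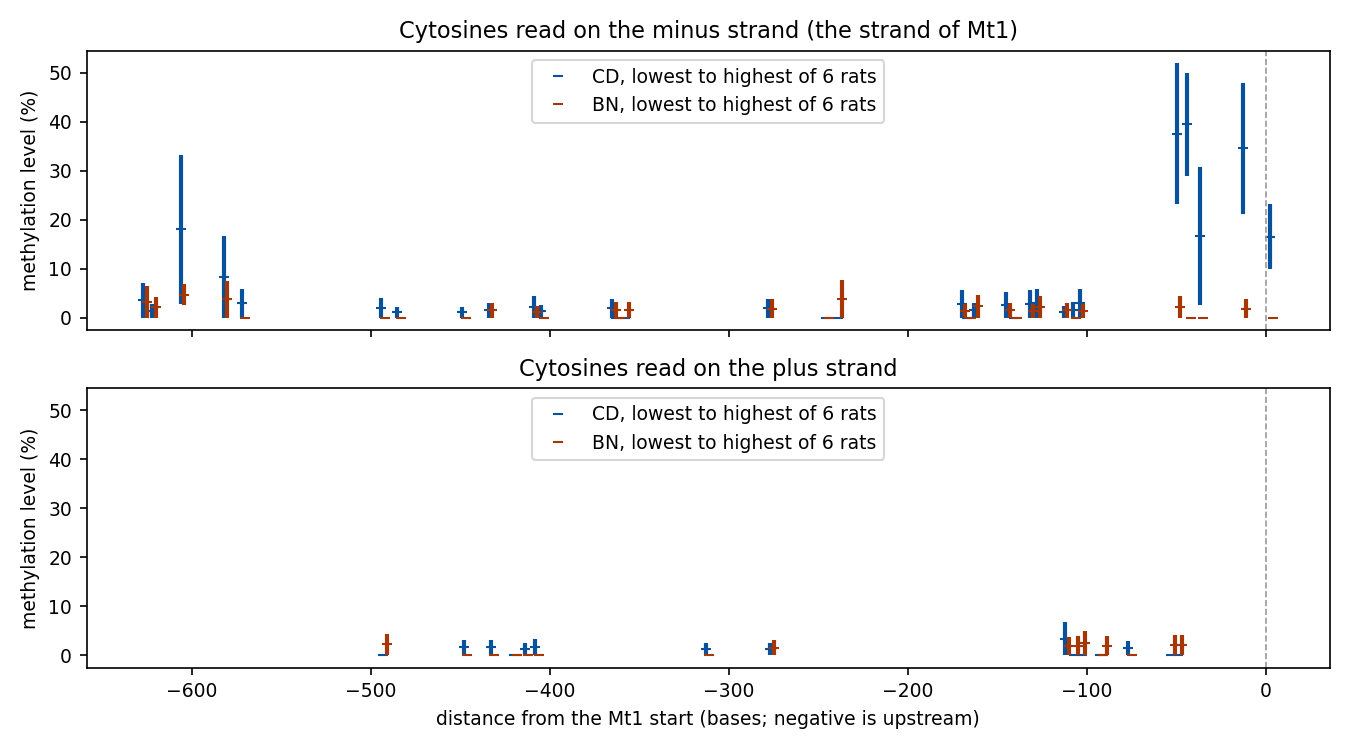
Methylation level in percent (vertical axis) of each covered CpG position against its distance from the Mt1 start in bases (horizontal axis), minus strand above and plus strand below; lines run from the lowest to the highest of 6 rats of a strain and ticks mark the middle of that range. The 5 minus-strand positions from -49 to 3 reach 51.9% in CD and at most 4.35% in BN, while no plus-strand position shown exceeds 6.67% in any rat.

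At position -43, the CD-NP rats had 30.8, 50 and 38.5% methylated reads and the CD-P18 rats 28.9, 37.0 and 33.8%. In all 6 BN rats it was 0, from 23 to 37 reads, which allows a level of up to 8.11 to 13.0% per rat. At position -49, the C inside the MspI site, the CD-NP rats had 23.1, 51.9 and 50% and the CD-P18 rats 24.4, 35.2 and 31.9%, against 0 to 4.35% in BN. At position -12, CD levels were 21.1 to 48.0% and BN levels 0 to 3.7%.

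The other positions were lower in CD. Position -36 had 2.56 to 30.8% in CD and position 3 had 10 to 23.1%, and both were 0 in every BN rat. So the measured levels of all 6 CD rats were above those of all 6 BN rats at the 5 positions. At position -36 this rests on 1 methylated read of 39 in CD-P18 1 (95% exact interval 0.0649 to 13.5%), which lies within the intervals of the BN rats. Of the 112 window positions, 5 had every BN rat below every CD rat, against 0.195% of all 1058678 positions, and 2 had every BN rat above every CD rat, against 0.385%. The 5 follow the MspI site at position -50, and their coverage was nearly equal in each rat (for example 25 to 26 reads in CD-NP 1 and 70 to 72 in CD-P18 3), as when the same reads cover all of them. They are therefore not independent of each other.

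**Figure D4:**
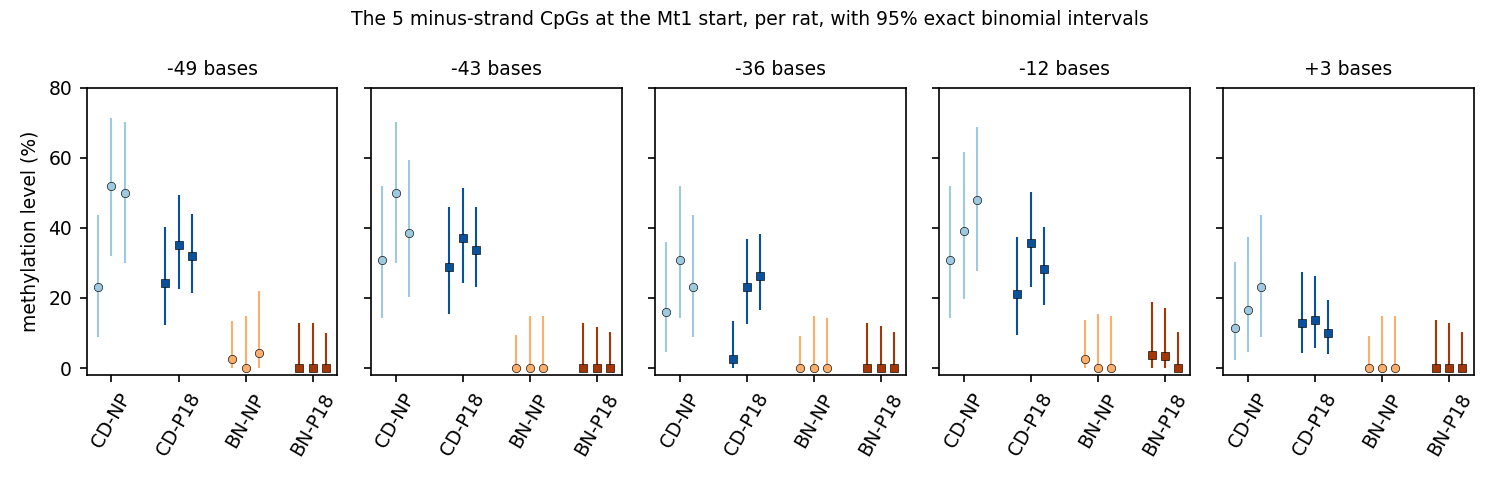
Methylation level in percent (vertical axis) of the 5 minus-strand CpGs at the Mt1 start, 1 panel per position, for the 12 rats by group; lines are 95% exact binomial intervals, which cover counting error only. All CD rats lie above all BN rats in each panel, and CD-NP and CD-P18 overlap.

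Over the 5 positions together, the CD-NP rats had 22.5, 38.1 and 36.4% and the CD-P18 rats 17.9, 29.2 and 26.1%. The BN rats had 0 to 1.05%. CD-NP and CD-P18 ranges overlapped (32.3 ± 8.56% and 24.4 ± 5.84%, SD, n = 3). In CD, the 5 positions were covered by 23 to 72 reads per rat and in BN by 22 to 39. Their summed calls are given against those of the 6 adjacent plus-strand CpGs. The CD-NP rats had 129 against 85, 126 against 85 and 129 against 81. The CD-P18 rats had 195 against 90, 264 against 119 and 356 against 216. BN-NP rats had 190 against 141, 114 against 158 and 116 against 116. In BN-P18 it was 133 against 133, 143 against 62 and 171 against 154. Every CD rat thus had more calls at the 5 positions, and the BN rats were mixed. The cause was not tested.

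Of the window, 57 positions reached 10 reads in each of the 12 rats and took part in a test of 404069 CpGs across the genome (a logistic model with moderated dispersion). To be a differentially methylated CpG (DMC), a position needed a difference larger than 10 points, from reads pooled per group, and an adjusted p below 0.05. In BN-NP against CD-NP, 6 of the 57 were DMCs, against 0.596% of all CpGs tested. These were the 5 positions, lower in BN by 17.1 to 39.7 points (adjusted p from 3.83e-08 to 0.00557, logistic model), and 1 position upstream of Mt2A. In BN-P18 against CD-P18, the same 5 positions were DMCs, lower in BN by 11.9 to 33.7 points (adjusted p from 2e-07 to 0.0362), against 0.568% of all CpGs. The study had picked out the Mt1 promoter from these rats, so neither count is independent evidence.

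The calls that held most often were those at positions -49 and -43, which were DMCs in both strain comparisons when each rat was left out in turn and with rat number as a block (3 DMCs at NP, 2 at P18). Position 3 lost its call without 4 of the 6 rats in each comparison, and position -36 at P18 without 3 of the 6. With each CpG's own dispersion in place of a moderated one, no CpG of the genome was called.

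No window CpG was a DMC between stages. In CD-P18 against CD-NP, 0 of 57 passed (1 at an unadjusted p under 0.05), against 0.0483% of all CpGs, and the 5 positions had differences of -3.75 to -10.6 points with an adjusted p of 1 in the logistic model. In BN-P18 against BN-NP, 0 of 57 passed (1 at an unadjusted p under 0.05), against 0.000247%. The test of strain by pregnancy called 0 of 57 (0 at an unadjusted p under 0.05), against 0.0052%, and 3 of the 5 positions were at 0 in all BN rats, where this test has little to work with.

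At the CpG where both strands were read, the methylation was seen on the minus strand only. The CpG of position -49 was also covered on the plus strand (base 11303055), where all 6 CD rats had 0% with at least 13 reads and the BN rats had 0 to 4.17%. On the minus strand the same CpG had 23.1 to 51.9% in CD, so the strands differed by 36.1 points on average. Of the 26 CpGs of the window read on both strands in all CD rats, this was the only one with a gap over 10 points (median gap 0.649 points). In BN, 1 of 22 had such a gap (median 0.611), and it lay 6884 bases downstream of the Mt1 start. The other 4 positions were read on the minus strand only. The CpG of position -49 lies in an MspI site, where RRBS cuts the DNA. Over the 12 rats, its plus-strand coverage was 11 to 36 reads, near that of plus-strand position -52 (11 to 35). Its minus-strand coverage was 23 to 72 reads, near that of position -43 (23 to 71). The strands may thus have been read from different fragments, and whether single molecules were methylated on 1 strand only was not tested. The DNA sequence of the CD rats at these bases was not analysed here, so whether the CD percentages at the 5 positions are methylation of Mt1 itself was not tested here. With an antibody against methylated cytosine, the study reported more methylation of an Mt1 promoter region in pregnant CD than in pregnant BN rats.

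On the other side of the window, 2 positions near Mt2A were higher in all BN rats. Base 11310161 on the minus strand, at position -7154, had 16.3, 12.8 and 7.5% in BN-NP and 10.5, 13.6 and 9.09% in BN-P18. In CD it was 0 in all rats but CD-P18 1, which had 2.38%. It was the sixth DMC between the non-pregnant strains (12.5 points, adjusted p = 0.037, logistic model), lost its call without 5 of the 6 rats, and was not a DMC at P18 (9.88 points, adjusted p = 0.25). Base 11308425 on the plus strand, inside Mt2A, had 4.0 to 11.5% in BN and 0 to 3.45% in CD, and its coverage was too low for the test.

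Expression and methylation were set side by side in the same 12 rats. The levels of the 48 positions formed separate ranges in the strains, 2.52 to 7.15% in CD and 0.527 to 0.966% in BN, so the relation is given within strain. Among the 6 CD rats, Pearson's r between Mt1 log2 CPM and the level was -0.42 (exact permutation p = 0.4, adjusted p = 0.431) and Spearman's rho -0.31 (exact permutation p = 0.564, adjusted p = 0.564), and without the 2 rats farthest from the median level r was 0.65. Among the 6 BN rats, r was 0.40 (exact permutation p = 0.431, adjusted p = 0.431) and rho 0.37 (exact permutation p = 0.497, adjusted p = 0.564), with 0.35 without 2 rats. Neither relation was distinguishable from none with 6 rats. The strains differed in methylation at both stages, by -4.29 points (BN minus CD) at NP and -4.49 at P18, whereas Mt1 RNA was called different between them at P18 and not at NP, and the test of that difference is the one of strain by pregnancy given above (adjusted p = 0.198, edgeR, and 0.0357 to 0.379 over its alternatives).

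**Figure D5:**
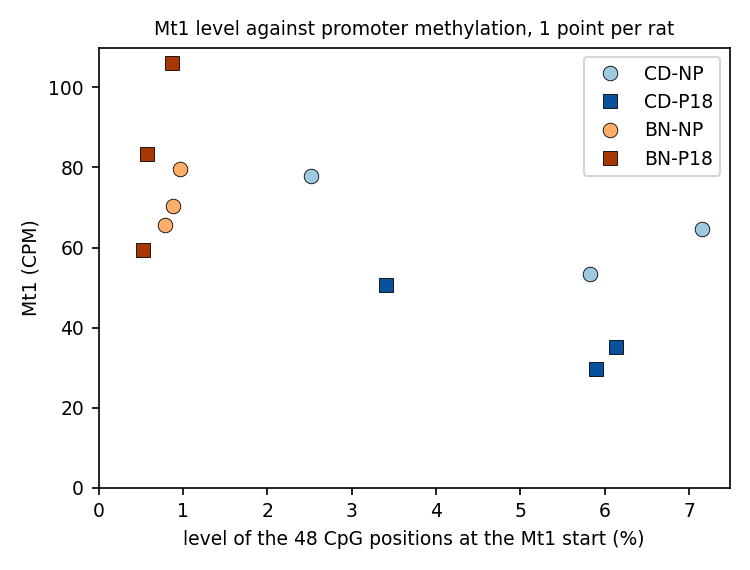
Mt1 level in CPM (vertical axis, from 0) against the methylation level in percent of the 48 CpG positions at the Mt1 start (horizontal axis, from 0), 1 point per rat, symbols and colours by group. BN rats lie under 1% at 59.4 to 106 CPM and CD rats between 2.52 and 7.15%, with CD-P18 at 29.7 to 50.6 CPM and CD-NP at 53.3 to 78.0 CPM.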

How the data were processed

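RNA-seq and RRBS libraries were made from the kidneys of the same 12 rats. The gene counts were deposited as raw counts: the authors trimmed reads (Trimmomatic), aligned them with STAR 2.5.2 to Rnor_6.0 and counted them with HTSeq 0.6.1, per the submitters' processing notes. The strand setting and annotation release are not given in the sources used here. Entries that name no gene held 72.47 to 75.6% of each library and were left out. The methylation level was deposited in percent with its coverage: the authors trimmed reads (Trim Galore 0.4.5), removed duplicates by molecular tags, aligned with Bismark and called CpGs with methylKit 1.16.1, and methylated reads were rebuilt from percent and coverage (largest gap to a whole read 0.467).

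Genes kept by filterByExpr were tested with edgeR 4.0.16 (quasi-likelihood, TMM, all 12 libraries in 1 fit, Benjamini-Hochberg adjustment), with calls at an adjusted p below 0.1 beyond a log2 fold change of 0.32 in size. log2 CPM used a prior count of 2. Where each of the 12 libraries had 10 reads or more, CpGs were tested with a logistic model and F test, dispersion moderated with limma 3.58.1. Cluster levels were tested by exact permutation over rats (scipy 1.17.1). Binomial intervals are exact (95%), floors are 3 counts, and both cover counting error only. On simulated data for BN-P18 against CD-P18, the CpG test recovered 67 of 200 CpGs changed by 25 points among 20000, with 0 false calls. The spread between rats in the simulation was set beforehand and not fitted to these data.

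The count table has no symbols. A symbol was paired with an identifier where the log2 fold change and mean log2 CPM that the study's table lists for it matched those of 1 identifier in the fit here, both to 0.003 once the median offset between table and fit was removed (3023 of 3064 symbols). The table's values served for this match alone and are not reported. The genes named are Mt1, the members of the pathway and marker lists, and the 5 genes most correlated with Mt1. The members and lists were chosen with earlier results of these data known. Promoter sequences are from RefSeq (GRCr8). Replicate numbers are those of the labels. Alternatives were DESeq2, other scaling, no filter, a replicate block, other dispersions, coverage minimums and cluster gaps, and leaving out each rat. A marker gene of the lists is not reported here.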

Additional observations from a re-analysis of the deposited data

How the results depend on the processing

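Mt1 in BN-P18 against CD-P18 stayed called under every alternative run. The other Mt1 values moved when single rats were left out: from -1.01 to -0.598 for pregnancy in CD (the call was lost in 4 of 6 cases), from -0.012 to 0.4 for pregnancy in BN, which changed sign without BN-P18 1, and from 0.742 to 1.22 for strain by pregnancy. That last test passed without a filter on low counts (0.96), with the replicate block (0.948) and with DESeq2 (0.964). Over many genes, same-numbered RNA libraries of different groups had correlations of -0.28 to 0.31, against -0.36 to 0.33 for other numbers. For RRBS these were -0.01 to 0.02 against -0.03 to 0.02. Such correlations cannot show whether a factor shared by rats of the same number acted on Mt1, for which rat 1 was highest in every group. The block is therefore given as a value only: -0.771 for pregnancy in CD and 1.1 for the pregnant strains, both called.

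DMCs in the window numbered 0 with each CpG's own dispersion in both strain comparisons, 3 at NP and 2 at P18 with the replicate block, and 4 to 5 at NP and 3 to 5 at P18 without single rats. Clusters that differed by strain numbered 2 with gaps of 100 bases and 0 without the 5 positions (chosen after seeing the data). They numbered 0 to 1 without single rats, and 0 when any BN-NP rat was left out. There the adjusted p at the Mt1 start was 0.05 (exact permutation test), with every CD rat still above every BN rat. With gaps of 100 bases, the second cluster was a run of 3 positions inside Mt2A (bases 11308425 to 11308482). There BN was higher than CD, by 4.35 points (adjusted p = 0.035, exact permutation test), opposite in direction to the Mt1 start. The strain difference at the Mt1 start was -5.05 to -3.89 points without single rats and -3.21 points with the mean of CpG percentages. Its pregnancy difference changed sign without the 5 positions (0.00524 points) and ranged from -0.782 to 0.376 without single rats. With the mean of CpG percentages, the BN correlation changed sign (-0.138) and the CD correlation was -0.0551, against -0.42 in the main setting. Without the 2 rats farthest from the median level, the CD value was -0.979 in that setting and 0.65 in the main one. The cause of these changes was not tested. Depth limits the CpG tests, since the tested window CpGs had as few as 10 reads in a rat. On simulated data for BN-P18 against CD-P18, only 67 of 200 changes of 25 points were recovered. That simulation used 20000 CpGs and a spread between rats that was not fitted to these data, so the share in the real tests may differ. With 3 rats per group, a CpG that was not called may still differ.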
